A study of Mus musculus with 12 samples.

Results

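Rnase1, Cidea and Jaml (also written Amica1) are 3 autosomal genes that are not part of the classic testis pathway. They were chosen by their measured array levels, low in the gonadal cells of mutant male embryos at embryonic day 11.5 and high in those of control males, so these contrasts are described below without a test. The arrays carry 5 probes for them, 2 for Rnase1 on chromosome 14, 1 for Cidea on chromosome 18 and 2 for Jaml on chromosome 9, out of 41174 probes and 18749 named genes in all, and each of the 5 passed the filter on dim probes. By the limma fit across all 19175 features, 9 features were both lower in mutant than in control males and higher in control males than in females of that genotype (0.0469% of the features tested). The 6 not chosen for these contrasts were Sry, Sox9 and Fgf9 of the testis pathway, 6030498E09Rik on the X chromosome, Gstm6 on chromosome 3, and a transcript without a gene symbol. For Rnase1, Cidea and Jaml the outcome of these contrasts was fixed by the choice, so nothing is read from it.

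Rnase1 encodes the secreted pancreatic-type ribonuclease, which degrades RNA outside cells and is made by exocrine pancreas and endothelium. Cidea encodes a protein of the lipid droplet surface, best known from brown fat, where it promotes the fusion and growth of droplets. Jaml encodes a junctional adhesion molecule of leukocytes that binds the coxsackievirus and adenovirus receptor, the product of Cxadr, on epithelial cells. Kdm3a, the current symbol of Jmjd1a, encodes an enzyme that removes methyl groups from lysine 9 of histone H3, a mark of silent chromatin, and is known in the mouse as an activator of the testis-determining gene Sry.

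The 4 groups had 3 single embryos each: males and females homozygous for a Jmjd1a mutant allele (mutants), and males and females heterozygous for it (controls). All 12 embryos were at embryonic day 11.5 and carried a transgene that puts the surface protein CD271 on cells expressing Nr5a1, and magnetic beads against CD271 were used to purify the somatic cells from dissociated gonads with their mesonephroi. The controls thus also carry a mutant allele, no embryo without one was analysed here, and the purification keeps whichever cells carry the transgene's protein. The sources used here name neither the strain and litters nor the region that the mutant allele lacks. The p-values below measure the spread between these single embryos.

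A level here is the log2 of the processed signal minus the log2 of the 75th percentile of the same array, so a level of 0 lies at that percentile, and levels of different probes are not comparable with each other. Between 58.0% and 65.2% of an array's spots exceeded background by the software's call of well above background, the 75th percentile lay between 143 and 299 intensity units, and the number of arrays limits the precision. Kdm3a stood between 0.44 and 1.04 in the 6 mutants and between 2.70 and 3.03 in the 6 controls, although it is not known whether its probe lies in the removed region. Sry was well above background in no mutant male and in all 3 control males, and in no female. All 10 markers of gonadal somatic cells, Nr5a1, Wt1 and Gata4 among them, were well above background on all arrays. The limma fit called 90 features in the mutant effect in males (0.469%), 68 in the mutant effect in females (0.355%), 34 in the sex difference of controls (0.177%) and 25 in that of mutants (0.13%) at an adjusted p of 0.05. It called 0 in the difference of the mutant effects between the sexes (0%), with 709 at an unadjusted p under 0.05. The arrays lay on 3 slides. Mutant male 1 shared slide 1 with all 3 control males. Mutant males 2 and 3 shared slide 2 with control females 1 and 2. The 3 mutant females were on slide 3, together with control female 3.

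The promoters of Rnase1 and Jaml are shown because Rnase1, Cidea and Jaml stood low together in the mutant males. They give the letters to set beside that pattern. No promoter of Cidea was among those available here. Both sequences are from RefSeq on GRCm38.p6 and run 5′ to 3′ from 250 bases before the transcript start to 50 bases after it, with the matched motif in capitals. Rnase1 lies on the minus strand at chr14:51146718-51147017 and Jaml on the plus strand at chr9:45078933-45079232.
Rnase1: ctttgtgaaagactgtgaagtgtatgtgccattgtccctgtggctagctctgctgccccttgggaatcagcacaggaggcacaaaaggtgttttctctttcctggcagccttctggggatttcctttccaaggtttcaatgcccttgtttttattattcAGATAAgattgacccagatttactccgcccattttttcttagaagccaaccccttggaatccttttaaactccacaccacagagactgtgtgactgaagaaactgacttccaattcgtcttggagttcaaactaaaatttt
Jaml: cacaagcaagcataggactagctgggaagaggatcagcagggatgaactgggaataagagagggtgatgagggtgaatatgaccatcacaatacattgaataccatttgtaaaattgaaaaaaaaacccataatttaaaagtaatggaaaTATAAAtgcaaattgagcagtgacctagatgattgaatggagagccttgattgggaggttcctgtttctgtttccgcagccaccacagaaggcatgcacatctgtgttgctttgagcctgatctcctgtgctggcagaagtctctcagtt
Both windows are poor in CpG dinucleotides, with 2 in the Rnase1 window and 1 in the Jaml window, against a median of 7 over the 32851 promoters of the table. Their GC content was 43.7% for Rnase1 and 42.3% for Jaml, against a median of 52.7%. The motifs below were searched on both strands, and none overlapped another match. The capitals in the Rnase1 window mark the GATA core AGATAA, which starts at position -91 from the transcript start and occurs in 11.2% of all promoters. The capitals in the Jaml window mark TATAAA, the letters of a TATA box, at position -100, which 13.6% of promoters hold. The SOX and SRY core AACAAT (10.7% of promoters), the NR5A1 element AAGGTCA (4.72%), the cAMP response element TGACGTCA (1.79%) and the E-box CACGTG (7.15%) matched in neither window, AGATAA was not in the Jaml window, and TATAAA was not in the Rnase1 window. These matches are descriptions of letters, not of bound sites.

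Rnase1 had the widest range of the 3 genes. Its brighter probe, which stands for the gene, had levels of -4.04, -2.93 and -2.76 in the 3 mutant males, against 0.69, 0.53 and -0.36 in the 3 control males. In females it had levels of -4.44, -3.97 and -3.88 in the mutants and -3.19, -3.49 and -3.60 in the controls. The 3 control males stood apart from all 9 other embryos, and the signal was well above background on all 12 arrays. Group means were -3.25 ± 0.697 in mutant males, 0.29 ± 0.565 in control males, -4.10 ± 0.300 in mutant females and -3.43 ± 0.211 in control females (SD, n = 3 each). Mutant males were thus 11.6-fold lower than control males, a log2 difference of -3.53 ± 0.350 (SE), which was the fifth lowest of the 19175 features. Control males were 13.1-fold above control females, a difference of 3.71, number 9 from the highest.

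The dimmer Rnase1 probe was well above background in the 3 control males alone. Its levels were -6.81, -6.92 and -6.49 in mutant males, against -3.80, -3.38 and -4.08 in control males. In females they were -6.75, -7.39 and -6.64 in mutants and -6.85, -5.28 and -5.72 in controls. The probe was at least 2.05-fold lower in mutant than in control males and at least 2.24-fold higher in control males than in females with the control genotype. In these bounds the dim group enters, array by array, at the lowest signal of any probe that was well above background, or at its own signal where that was higher. The levels of the pair of Rnase1 probes correlated at r = 0.897 over the 12 arrays, which share the 4 groups.

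Cidea, measured by a single probe, showed the same order of groups in a narrower range. Its levels were -4.17, -3.27 and -3.40 in mutant males, against -1.46, -2.14 and -2.49 in control males. They were -4.16, -4.18 and -4.45 in mutant females, against -3.81, -3.87 and -3.60 in control females. The 3 control males were again the 3 highest embryos, and mutant male 1 stood among the mutant females. Group means were -3.61 ± 0.486 in mutant males, -2.03 ± 0.521 in control males, -4.26 ± 0.159 in mutant females and -3.76 ± 0.144 in control females (SD, n = 3 each). The difference was -1.58 ± 0.275 (SE) in mutant against control males, 2.99-fold lower and number 46 from the lowest. Between control males and control females it was 1.73, 3.31-fold higher and number 19 from the highest.

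Jaml was the gene with the smallest contrast between the groups other than control males. Its brighter probe had levels of -2.19, -1.71 and -1.65 in mutant males, against -0.09, 0.74 and -0.45 in control males. It had levels of -2.53, -2.06 and -2.03 in mutant females, against -1.39, -1.81 and -2.29 in control females. All control males lay above all other embryos, while mutant males, mutant females and control females overlapped. Group means were -1.85 ± 0.294 in mutant males, 0.07 ± 0.610 in control males, -2.21 ± 0.279 in mutant females and -1.83 ± 0.449 in control females (SD, n = 3 each). Mutant males were 3.77-fold lower than control males (log2 difference -1.92 ± 0.313, SE, number 21 from the lowest), and control males 3.72-fold higher than control females (1.90, number 16 from the highest).

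The dimmer Jaml probe again put the control males highest, with levels of -4.47, -3.72 and -3.65 in mutant males, against -2.18, -1.57 and -2.82 in control males. Its levels were -4.88, -3.96 and -4.49 in mutant females, against -3.99, -4.29 and -4.64 in control females. Control males were the 3 highest embryos by this probe too, and the levels of both Jaml probes correlated at r = 0.977 over the 12 arrays. The difference was -1.75 in mutant against control males and 2.12 in control males against control females.

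**Figure D1:**
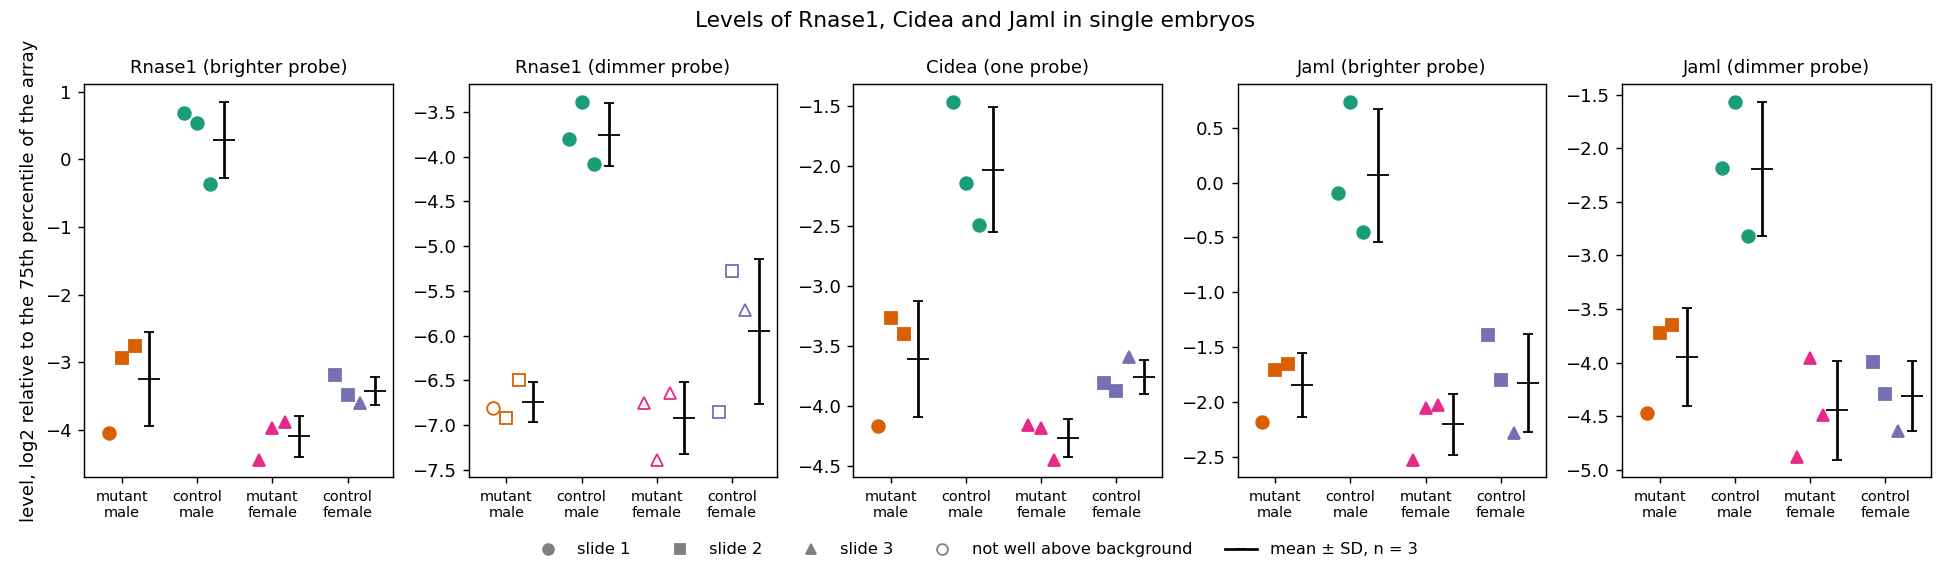
Levels (log2 relative to the 75th percentile of the array, y axis, with a range of its own in each panel) of the 5 probes in each of the 12 embryos, by group, with the mean ± SD of 3 embryos beside the points, the slide as the shape of the point and open points where the probe was not well above background. Control males stand above the other 9 embryos in every panel, and the dimmer Rnase1 probe is well above background in control males alone.

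The fit called 75 features lower in mutant males (0.391% of the features tested) and 17 higher in control males than in the control females (0.0887%). For each of the 3 genes the groups did not overlap in either comparison. Without selection, the groups did not overlap with mutant males lower in 12% of features and with control males higher in 10.1%. The genes were chosen for these contrasts, and both contrasts share the 3 control males, so nothing is read from these counts. In bulk RNA, fewer cells that express a gene and less of its RNA per cell cannot be told apart.

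Mutant males and control females, which differ in both sex and genotype, overlapped in the levels of all 3 genes. The mean of mutant males minus that of control females was 0.18 for Rnase1, 0.15 for Cidea and -0.02 for Jaml, with no test. On slide 2, which held 2 embryos of each of these groups, the differences were 0.49, 0.51 and -0.08 for the same genes in that order. The order of the group means was control males, mutant males, control females and mutant females for Rnase1 and Cidea. For Jaml the probes disagreed. By the brighter one the order was control males, control females, mutant males and mutant females. By the dimmer one, also well above background on all 12 arrays, mutant males came before control females, with a difference of 0.36 and, on slide 2, 0.46. Below the control males the spreads of the embryos overlapped between neighbours, except for control and mutant females in Cidea and Rnase1, whose test is given below.

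The raw signals show how close to background these levels lie. The raw median signal of the brighter Rnase1 probe was 1.64 to 2.38 times its local background in mutant males, against 6.67 to 10.2 times in control males, and 1.59 to 2.02 times in mutant females, against 1.92 to 2.13 times in control females. That of Cidea was 1.48 to 1.96 times background in mutant males, against 2.63 to 3.46 times in control males, and 1.56 to 2.00 times in mutant females, against 1.70 to 2.00 times in control females. Jaml was 2.63 to 3.14 times background in mutant males, against 4.95 to 10.4 times in control males, and 2.84 to 3.59 times in mutant females, against 2.81 to 3.58 times in control females. On this scale, too, the control males were separate from the other groups for each gene, and the other groups overlapped. With normexp background correction and an offset of 50, which draws dim signals together, the male differences were -1.75 for Rnase1, -0.62 for Cidea and -1.12 for Jaml.

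**Figure D2:**
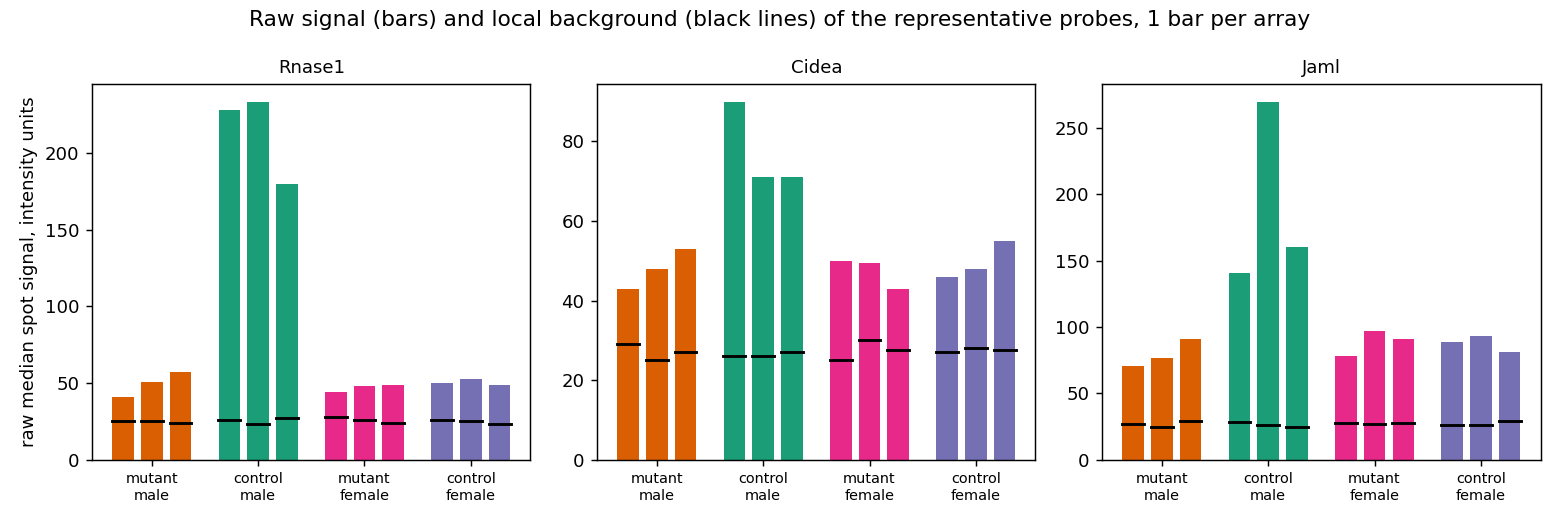
Raw median spot signal (bars, in intensity units from 0, with a range of its own in each panel) and local background (black lines) of the probe that stands for each gene, 1 bar per embryo, replicates 1 to 3 from left to right. The Rnase1 bars reach no more than 57 in mutant males and in females, against 180 to 233.5 in control males, and those of Cidea no more than 55, against 71 to 90 in control males.

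Mutant females were not used in choosing the genes, which leaves the mutant effect in females open to a test, although the control females entered through their difference from control males. None of the 3 genes passed. Rnase1 was at -4.10 in mutant females against -3.43 in control females, a log2 difference of -0.67 (95% interval -1.44 to 0.10, limma adjusted p = 0.489). Cidea differed by -0.51 (-1.11 to 0.0996, limma adjusted p = 0.490). Jaml differed by -0.38 (-1.07 to 0.31, limma adjusted p = 0.564). All 3 point estimates were below 0, and the fit called 67 features lower in mutant females (0.349%), with no gene of the 3 among them. The 3 mutant females lay below the 3 control females for Rnase1, with a gap of 0.28, and for Cidea, with a gap of 0.29, and overlapped them for Jaml. Groups that did not overlap with mutant females lower were found in 7.35% of all features.

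Array brightness differed between mutant and control females, with overlapping ranges, and its part in these female differences was not tested. Within each female group, the levels of Rnase1 and Jaml fell as brightness rose, but those of Cidea did not. Control female 3, the brightest control female, had the highest Cidea level of its group (-3.60). Mutant female 3, the dimmest mutant female, had the lowest of its group (-4.45). The 75th percentile was 268 to 299 in mutant females, against 188 to 279 in control females, and the raw signals themselves were 44.5 to 48.5 in mutant females against 49 to 52.5 in control females for Rnase1, and 43 to 50 in mutant females against 46 to 55 in control females for Cidea. With brightness as a covariate the differences in females were -0.35 for Rnase1, -0.32 for Cidea and -0.098 for Jaml. With slide as a block, the Jaml difference was 0.083, which compares the mutant females with control female 3 alone, the only control on their slide.

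The sex difference among mutants holds the mutant males, whose low levels were used in choosing the genes, so it is given as a description with no test. The mean of mutant males minus that of mutant females was 0.85 for Rnase1, 0.65 for Cidea and 0.36 for Jaml. The fit called 10 features higher in mutant males (0.0522%), and nothing is read from the absence of the 3 genes among them. The 2 sexes overlapped for each gene because mutant male 1 was as low as the mutant females, and for Cidea it lay just below the highest of them. Groups that did not overlap with mutant males higher made up 14% of the features. With brightness as a covariate these differences were 0.24 for Rnase1, 0.31 for Cidea and -0.17 for Jaml, and with slide as a block that of Cidea was 1.17 and that of Jaml -0.16.

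The difference between the mutant effect in males and that in females holds the contrast by which the genes were chosen, and was not tested for them. The values side by side were -3.53 in males and -0.67 in females for Rnase1, -1.58 in males and -0.51 in females for Cidea, and -1.92 in males and -0.38 in females for Jaml.

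**Figure D3:**
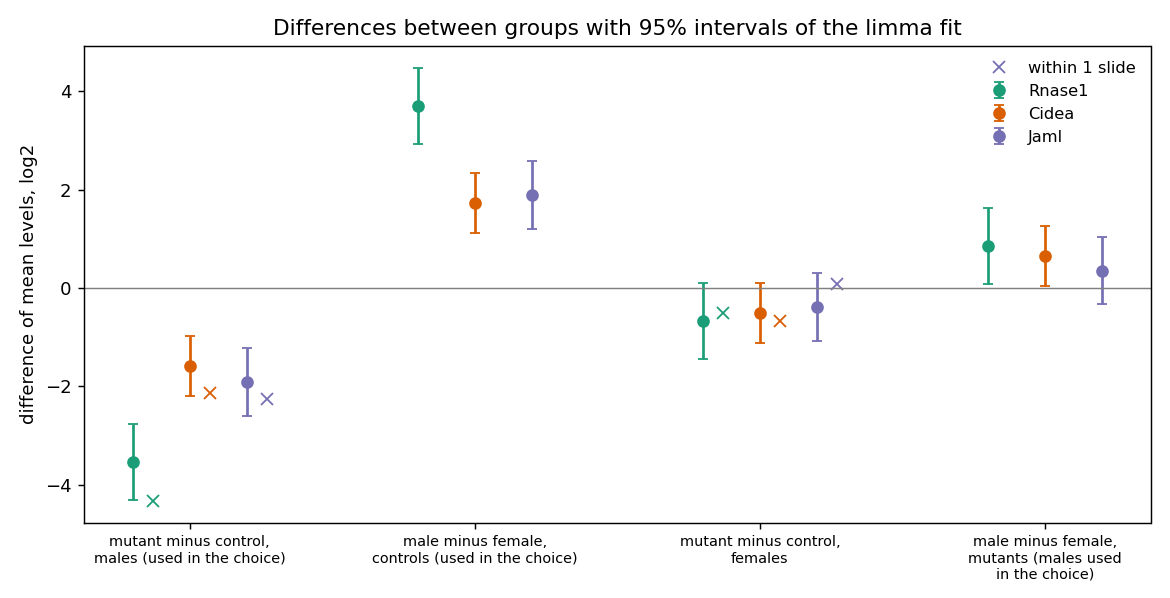
Differences of group means (log2, y axis) for Rnase1, Cidea and Jaml in the 4 comparisons, with 95% intervals of the limma fit and crosses for the difference within a single slide. The intervals of the mutant effect in females include 0 for all 3 genes, although its control females entered the choice of the genes. The other 3 comparisons hold males used in choosing the genes and are drawn as a description.

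Slides could be compared within each sex only in part. On slide 1, mutant male 1 minus the mean of the 3 control males was -4.33 for Rnase1, -2.14 for Cidea and -2.25 for Jaml, and -2.28 for the dimmer Jaml probe. These differences were larger than over all male arrays, since mutant male 1 was the lowest of the mutant males by the representative probe of each gene. The dimmer Rnase1 probe was not well above background in mutant male 1, so no difference is given for it. On slide 3, the mean of the 3 mutant females minus control female 3 was -0.50 for Rnase1, -0.67 for Cidea and 0.083 for Jaml. No slide held control males with control females or mutant males with mutant females, so slide and sex cannot be told apart within a genotype. Mutant males 2 and 3, which stood higher than mutant male 1 for all 3 genes, shared slide 2.

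Most markers of mesonephric epithelium and of endothelium, cells that the dissected tissue can hold, had higher means in mutant than in control males. Of the 12 markers of mesonephric epithelium, 11 had higher means in mutant than in control males, 0 passed the threshold, the groups did not overlap in 7 (8.43% of all features did so in this direction), and the median difference was 0.67, against -0.05 over all features. In 6 of the 12 the control males lay below the control females without overlap, as did 5.9% of all features. Their summed level, in multiples of the 75th percentile of the array, was 50.3 to 66.1 in mutant males, against 41.3 to 48.1 in control males, and 40.6 to 50.2 in mutant females, against 46.2 to 53.8 in control females. The sum of the 10 gonadal somatic markers was 43.0 to 57.5 in mutant males and 40.5 to 47.8 in control males, with a median difference of 0.13. Endothelial markers were higher in mutant males in 10 of 11 (median 0.62), with sums of 13.0 to 23.2 in mutant males against 12.7 to 18.6 in control males. Among leukocyte markers, 7 of 14 on the array passed the filter, all 7 had higher means in mutant males (median 0.53), and their sums were 1.73 to 3.47 in mutant males against 1.05 to 3.26 in control males. These groups of markers differed in the direction opposite to Rnase1, Cidea and Jaml, none of their members passed the threshold, and their part in the differences of the 3 genes was not tested.

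For Jaml and Cidea, markers of the cells they are known from were in part at background. Of the 14 leukocyte markers, Ptprc, the pan-leukocyte surface phosphatase, and Itgam, Lyz2, Laptm5, Cx3cr1, Spi1 and Cd3g were not well above background on all arrays of any group. The other 7 passed the filter, and among them Fcer1g, Tyrobp, Cd52 and Coro1a were well above background on all 12 arrays, while Csf1r, Adgre1 and Cd3e were so on some. Fcer1g, a signalling chain of myeloid receptors, averaged -0.14 ± 0.465 in mutant males and -0.67 ± 0.951 in control males, and -0.80 ± 0.965 in mutant females and -0.38 ± 0.538 in control females (SD, n = 3 each). Of the brown adipocyte list, Adipoq, Cfd, Lep, Retn and Elovl3 were likewise dim, while Ucp1, Fabp4 and Cox8b passed the filter. The summed level of these 3 was 0.129 to 0.980 in mutant males, against 0.238 to 0.448 in control males.

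No other gene of the families and partners of Rnase1, Cidea and Jaml passed the threshold, in a fit that called 0.13% to 0.469% of all features in the 4 comparisons, so that a count of 0 in lists of 4 to 14 genes is close to the background and nothing is read from it. The RNase A family besides Rnase1 comprised 20 listed genes, of which 13 were on the array and 4 passed the filter: Ang (angiogenin) and Rnase4, which are secreted ribonucleases, Ang4, and Rnh1, the cytosolic inhibitor that binds these enzymes. None of the 4 was called in any comparison. Rnh1 was at 1.83 ± 0.154 in mutant males and 2.14 ± 0.210 in control males (difference -0.31, limma adjusted p = 0.427), and Rnase4 at -1.22 ± 0.496 in mutant males and -0.97 ± 0.121 in control males (-0.25, limma adjusted p = 0.602). In females, Rnase4 differed by -0.54 and Ang by -0.49 between mutants and controls (limma adjusted p = 0.480 and 0.486). Between mutant males and mutant females, Ang differed by 0.54 (limma adjusted p = 0.444) and Ang4 by 0.56 (limma adjusted p = 0.479). Between control males and control females, Rnh1 differed by 0.33 (limma adjusted p = 0.461) and was the 1 gene of the list with an unadjusted p under 0.05 in any of the 4 comparisons, and Ang differed by 0.17 (limma adjusted p = 0.768). The median difference of the 4 genes was -0.19 in males and -0.52 in females, against -0.05 and -0.05 over all features.

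Of 18 other genes of the CIDE family and the lipid droplet, 14 were tested and 0 were called by limma in any comparison, with 3 at an unadjusted p under 0.05 in the mutant effect in females, 3 in that in males, 1 in the sex difference of mutants and 4 in that of controls. Cideb and Cidec, the closest relatives of Cidea, were not well above background on all arrays of any group. Plin5, a perilipin of oxidative tissues, was at -3.05 ± 0.362 in mutant females and -1.87 ± 0.0751 in control females (difference -1.18 ± 0.262, limma adjusted p = 0.141), and Plin1, the perilipin of fat cells, differed by -0.92 (limma adjusted p = 0.393); the groups did not overlap for either. In males, G0s2, an inhibitor of triglyceride breakdown, was at -0.07 ± 0.0751 in mutants and 0.32 ± 0.185 in controls (-0.39, limma adjusted p = 0.369), and Mgll, a monoglyceride lipase, differed by 1.06 (limma adjusted p = 0.412). Pnpla2, the lipase that starts triglyceride breakdown, differed by -0.71 between mutant males and mutant females and by -0.87 between control males and control females, without overlap in either (limma adjusted p = 0.406 for both). In the same 2 comparisons, Plin5 differed by 0.51 among mutants (limma adjusted p = 0.463) and G0s2 by 0.42 among controls (limma adjusted p = 0.411). The median over the 14 genes was 0.015 in males and -0.068 in females.

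The brown fat list had 9 tested genes and 0 called by limma, with 1 at an unadjusted p under 0.05 in each mutant effect, 2 in the sex difference of mutants and 0 in that of controls. Cox7a1, a subunit of cytochrome c oxidase, was at 1.34 ± 0.207 in mutant males and 1.88 ± 0.222 in control males (-0.53, limma adjusted p = 0.330), and at 0.86 ± 0.120 in mutant females and 1.56 ± 0.314 in control females (-0.70, limma adjusted p = 0.222), and neither pair of groups overlapped. Ucp1, the uncoupling protein that defines brown fat, was at -2.36 ± 1.97 in mutant males and -3.24 ± 0.208 in control males, with mutant males both above and below the controls. Cox8b, another oxidase subunit, differed by -0.61 between mutant and control males (limma adjusted p = 0.441), in each of which it was well above background on 2 of 3 arrays, and by 0.68 between control males and control females (limma adjusted p = 0.471). Ppara, a nuclear receptor for fatty acids, differed by -0.33 in females (limma adjusted p = 0.537). Between mutant males and mutant females, Ppargc1a, a coactivator of mitochondrial genes, differed by 0.72 (limma adjusted p = 0.397) and Cox7a1 by 0.48 (limma adjusted p = 0.386), and between control males and control females Cox7a1 differed by 0.32 (limma adjusted p = 0.499). The median over the list was 0.13 in males and -0.16 in females.

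In the list of junctional adhesion molecules and relatives of Cxadr, 8 of 12 genes besides Jaml were tested and 0 were called by limma, with 0 at an unadjusted p under 0.05 in each of the 4 comparisons. Cxadr, the binding partner of Jaml, differed by -0.08 between mutant and control males (limma adjusted p = 0.758). It was at 1.18 ± 0.230 in control males and 0.97 ± 0.149 in control females (difference 0.20, limma adjusted p = 0.554). F11r, a junctional adhesion molecule of epithelia, was 0.23 higher in the males of the controls than in their females, without overlap (limma adjusted p = 0.532). Esam, of endothelial junctions, differed by 0.36 between mutant and control males (limma adjusted p = 0.532) and by 0.44 between mutant males and mutant females (limma adjusted p = 0.535). Vsig2 differed by -0.28 in the female mutant effect (limma adjusted p = 0.521) and by 0.43 between mutant males and mutant females (limma adjusted p = 0.444), and Mpzl2 by 0.25 in both the male and the female mutant effect (limma adjusted p = 0.509 and 0.534). The median of the 8 genes was 0.019 in the male and -0.081 in the female mutant effect.

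The testis pathway list had 14 tested genes, of which 4 were called lower in mutant males, Sry, Cst9, Fgf9 and Sox9 (0.391% of all features were), and 3 higher in the males than in the females among controls, Sry, Sox9 and Fgf9 (0.0887%). The male call was lost in 17 of 22 alternatives for Sox9, including 11 of the 12 that leave out an array (limma adjusted p up to 0.224), and in 10 of 22 for Cst9 (up to 0.137). Among controls the call was lost in 7 of 22 for Sox9 (limma adjusted p up to 0.604), 2 of 22 for Fgf9 (up to 0.0581) and 1 for Sry (up to 0.0625). Sry was also called higher in mutant males than in mutant females, although none of these 6 arrays had it well above background, and a fold is therefore left out. In females, Defb19 and Cst9 each differed by -0.79 between mutants and controls (limma adjusted p = 0.222 and 0.416). The median of the list was -0.78 in males and -0.11 in females. This list was drawn up with these results known, and its direction is therefore no independent evidence.

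The genes next to Rnase1, Cidea and Jaml on their chromosomes were not called in any of the 4 comparisons. Among the 5 genes on either side of Rnase1, a cluster of ribonuclease genes, Ang and Rnase4 passed the filter and differed by -0.13 and -0.25 in mutant against control males. Around Cidea, 7 of the 10 neighbours were tested, with male differences from -0.22 to 0.35. Impa2, an inositol monophosphatase, was higher in mutant males without overlap (0.35, limma adjusted p = 0.380). Prelid3a was higher without overlap in males than in females, by 0.43 in controls (limma adjusted p = 0.285) and by 0.28 in mutants (limma adjusted p = 0.412). It was well above background on 2 of 3 arrays in control males and in control females, and on all 3 in each mutant group. Around Jaml, Mpzl2 differed by 0.25 and Scn2b by 0.23 in males, and Cd3e was well above background on 2 of 3 arrays of mutant males and on 0 of 3 of control males, so no difference is given. Rnase1, Cidea and Jaml were chosen for their male differences and their neighbours were not, so the 2 are not compared.

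**Figure D4:**
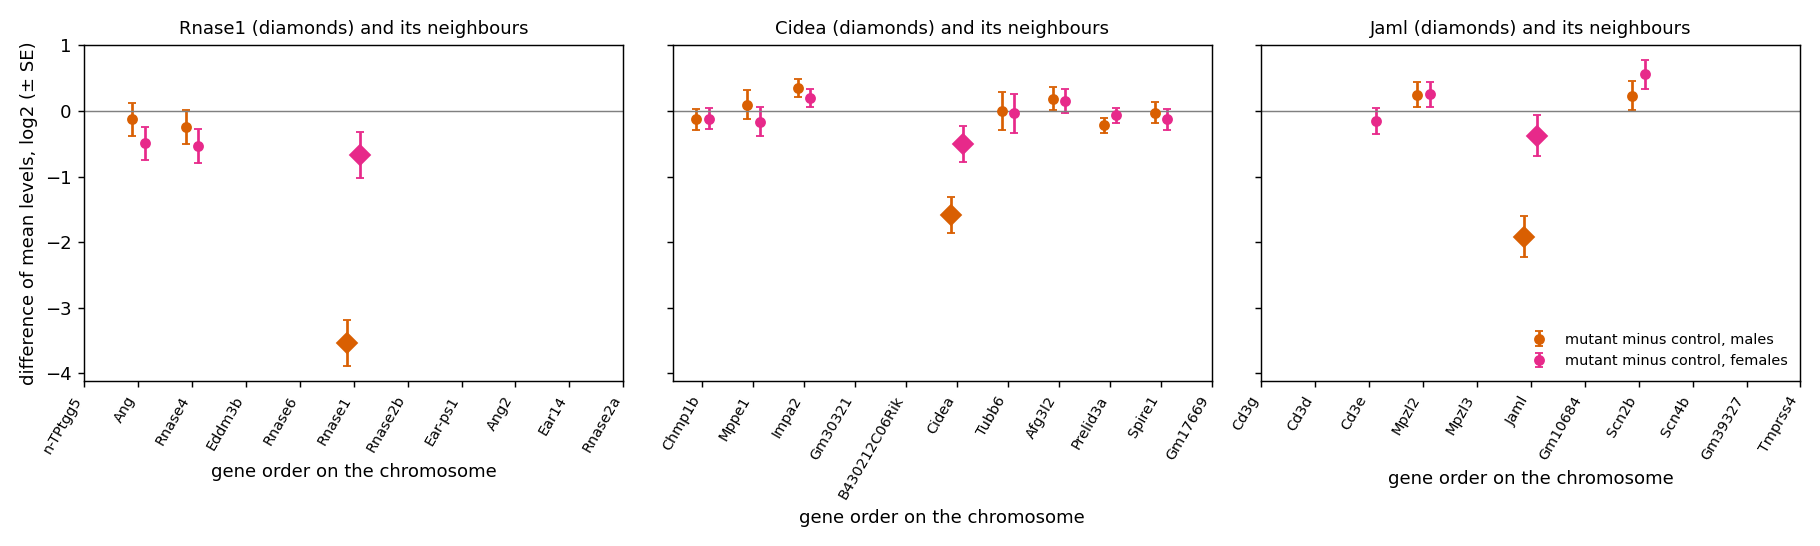
Mutant minus control differences (log2 ± SE, y axis) in males and females for Rnase1, Cidea and Jaml (diamonds) and for the tested genes among the 5 on either side (circles), in their order on the chromosome; names without a point were not on the array or not tested, and Cd3e has no point in males because it was not well above background in any control male. The neighbours lie between -0.54 and 0.56, and the 3 genes, chosen for it, between -3.53 and -1.58 in males.

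Across the 12 arrays the genes followed each other closely. Of 13261 other named genes, Cidea (r = 0.967) and Jaml (r = 0.965) had the levels most like those of Rnase1, followed by Gstm6, a glutathione S-transferase (0.961), Fgf9 (0.949) and Nudt19, a peroxisomal hydrolase of coenzyme A (0.941). For Cidea the closest after Rnase1 were 4933413J09Rik (0.937), Mmd2 (0.931), Zfp93 (0.926) and Cbr3, a carbonyl reductase (0.921). For Jaml they were Gstm6 (0.943), Cst9, a cystatin (0.941), Rgn, the X-linked gene of regucalcin (0.935), and Nudt19 (0.935). Cidea and Jaml correlated at 0.886 with each other and ranked 26 and 32 in each other's lists. These values rest largely on the 3 control males, which all these genes share, and the 3 genes were chosen for that pattern.

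Deviations from the group means give the part of the likeness that lies between embryos of 1 group. Here Rnase1 correlated with Cidea at 0.731 and with Jaml at 0.715, while Cidea and Jaml correlated at 0.156. Gstm6, in spite of its high correlation over all arrays, followed Rnase1 at 0.293, and Rgn followed Jaml at 0.882. Mutant male 1 had the lowest levels of the mutant males and control male 3 those of the control males for the representative probes of all 3 genes. Array brightness and slide are shared by all genes of an array, and their part in these correlations was not tested.

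**Figure D5:**
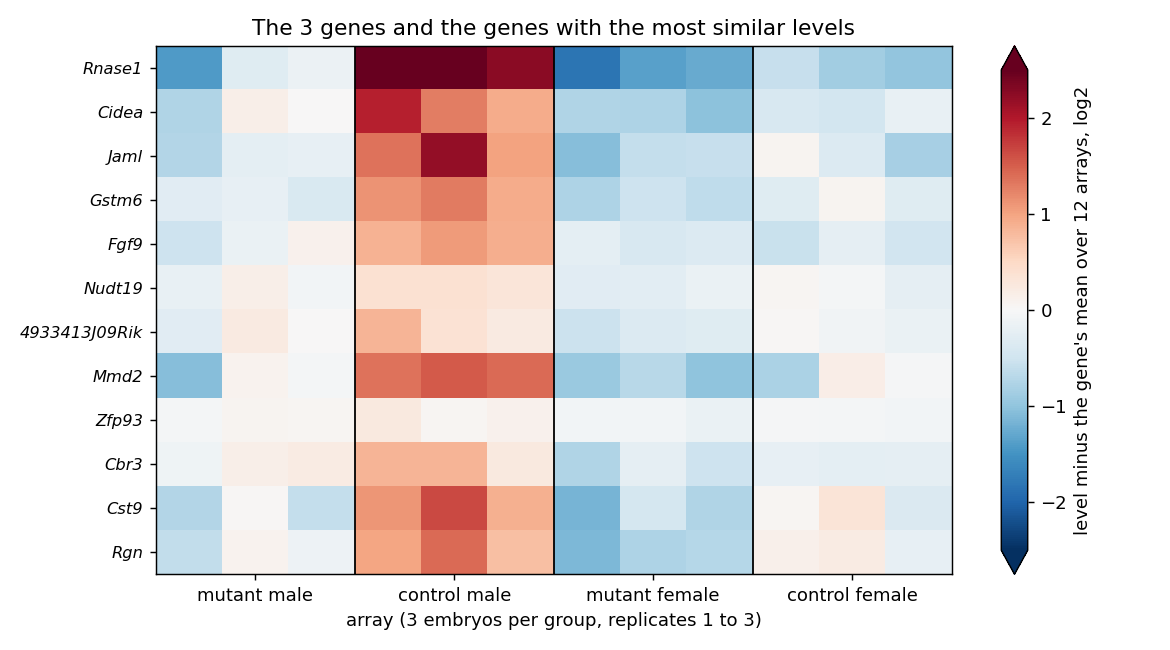
Level of each gene minus its mean over the 12 arrays (log2, colour; values beyond the ends of the scale take the end colours) for Rnase1, Cidea and Jaml and the genes whose levels are most like theirs, with 3 embryos per group as columns. Control males lie above the mean of every gene, while the male differences of Nudt19 and Zfp93 are only -0.39 and -0.11. The Zfp93 colours are faint, and its level was higher in mutant male 2 (0.838) than in control male 2 (0.822).

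Gstm6 is the named autosomal gene outside the testis pathway that met the same pair of contrasts and was not among the 3. Its levels were -1.40, -1.32 and -1.50 in mutant males, against 0.01, 0.17 and -0.19 in control males. In females they were -1.89, -1.64 and -1.76 in mutants, against -1.43, -1.04 and -1.42 in controls. The mutant females lay below the control females (difference -0.47, limma adjusted p = 0.353), which did not pass. Its female difference was between those of Cidea and Jaml, and its male difference of -1.41 was smaller in size than that of each of the 3 genes.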

How the data were processed

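Agilent 1-colour arrays were measured for 12 single embryos. The deposited intensity is, per the file headers, a background-subtracted processed signal of Agilent Feature Extraction 10.5.1.1 (array design 014868, built on mm9), not scaled between arrays; raw median signal and local background intensities were deposited beside it. From these, log2 levels relative to the 75th percentile of the non-control spots of each array were computed from the deposited intensity, spots that the software marked as outliers were left out, and spots of a probe were averaged. Of 41174 probes, 27479 matched 18749 symbols by accession through a RefSeq table of GRCm38.p6, and 13695 kept their accession. Probes entered the tests when some group had all 3 of its arrays well above background and at most 1 array lacked a value. With the brightest of these taken per gene, 19175 features remained, and 13262 had a gene name.

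The means of the 4 groups were estimated with limma 3.58.1 in R 4.3.3 from the 12 arrays together, with Benjamini-Hochberg adjustment over all features and a threshold of 0.05; the fit was tested on simulated data. The 3 genes and all gene lists were chosen with earlier results of these data known. Besides the 3 genes, the text names the 5 genes most correlated with each over the arrays, for each of the 5 lists of families and pathways and each comparison the genes called (at most 4) or else the 2 with the smallest p, neighbours within 5 genes whose groups did not overlap, and Kdm3a, Sry and Sox9 as checks. List members at background, Ucp1, Cxadr, single cell type markers and the other tested neighbours were named in addition, after their values were seen. Comparisons with males, which were used in choosing the 3 genes, carry no p for them. The mutant effect in females carries one, although its control females entered the choice. Over 18 pairs of same-numbered embryos of different groups, correlations of their deviations ranged from -0.532 to 0.426. Their median was -0.116, against 0.107 for other pairs. No pairing by number was therefore used, although these few correlations cannot settle whether the numbers pair the embryos. Promoters were taken from RefSeq on GRCm38.p6, and coordinates were not moved between builds. Alternatives were quantile normalization, normexp on the median signal with an offset of 50 (the files hold no mean signal), other filters, the mean of the probes of a gene, replicate number or slide as a block, brightness as a covariate, array weights, only the groups compared, and leaving out each array.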

Additional observations from a re-analysis of the deposited data

Results flagged for a closer look

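The 67 genes examined were Rnase1, Cidea and Jaml, the checks, the most correlated genes, the tested neighbours and those picked from each list. The other genes of the lists were not examined. Of the 67, 1 differed in direction between the sexes without overlap in either. In males alone, mutants lay below controls without overlap in 12% of all features. The share of all features with opposite directions in the sexes was not counted, so nothing is read from this count. Sox9 was lower in mutant than in control males, by a log2 difference of -1.05, with every mutant male below every control male. In females it was 0.41 higher in mutants than in controls, with every mutant above every control. The test of the difference of these effects did not pass (limma adjusted p = 0.802). Rnase1, Cidea and Jaml were not flagged, since their mutant means lay below the control means in both sexes. Groups of 3 embryos are too small for a test of single outlying samples.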

How the results depend on the processing

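Outside the control males the signals lie little above local background, the spread rests on 3 embryos per group, and slide coincides with sex within each genotype; litters are unknown. In the mutant effect in females, no alternative took Rnase1, Cidea or Jaml past the threshold, array weights included (lowest limma adjusted p 0.0652, 0.194 and 0.0997 over all alternatives). Jaml alone changed sign: in females with slide as a block (0.083), and among mutants with slide as a block (-0.16) and with brightness as a covariate (-0.17). The slide-block value in females compares the mutant females with control female 3 alone.

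In the comparisons that chose the genes, normexp gave male differences of -1.75 (Rnase1), -0.62 (Cidea) and -1.12 (Jaml) and sex differences in controls of 1.94, 0.81 and 1.22. The slide block gave -4.33 and -2.14 in males and 4.83 and 2.64 in controls for Rnase1 and Cidea. Its male values are the differences within slide 1, where mutant male 1 was the only mutant. Brightness as a covariate gave sex differences in controls of 3.20 for Rnase1 and 1.45 for Jaml, and the mean of both probes 2.95 for Rnase1. Leaving out each array, the male difference ranged from -3.86 to -3.13 for Rnase1, -1.81 to -1.30 for Cidea and -2.17 to -1.58 for Jaml, the sex difference in controls from 3.51 to 4.04, 1.44 to 1.96 and 1.56 to 2.15, the female difference from -0.78 to -0.50, -0.56 to -0.41 and -0.61 to -0.16, and the sex difference in mutants from 0.61 to 1.25, 0.48 to 0.93 and 0.20 to 0.53.

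Counts of called features moved more, and the features were not always the same. The 68 called in females became 44 with no filter (39 of them among the 68), 13 with the slide block (10 shared), 34 with only the groups compared (28 shared), 42 with brightness (41 shared), 5585 with array weights and 31 to 128 leaving out each array (128 without control female 3, whose weight was 0.205). The 25 among mutants became 11 with probes well above background on every array, 16 with the replicate block (15 shared), 7 with slide (6 shared), 10 with only the groups compared, 10 with brightness (9 shared), 93 with weights and 11 to 38 leaving out each array. The 90 in males became 35 with no filter (30 shared), 52 with slide (26 shared), 21 with only the groups compared (18 shared), 56 with brightness (52 shared), 2682 with weights and 26 to 93 leaving out each array. The 34 in controls became 13 with slide (8 shared), 10 with only the groups compared, 246 with weights and 19 to 40 leaving out each array. The difference of the mutant effects went to 8 with slide and 1 with brightness, and stayed at 0 leaving out each array. Replicate number as a block changed no other count by over 1.5 times, and it is not known whether the numbers pair the embryos. The cause of these shifts was not tested.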

Other observations

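Other marker groups varied between embryos as well. Erythroid transcripts varied most: the summed level of 7 markers, in multiples of the 75th percentile of the array, ran from 27.9 to 335 in mutant males, 33.4 to 253 in control males, 23.5 to 498 in mutant females and 56.9 to 866 in control females. All 7 had lower means in control males than in control females (median -1.01) and none was called by limma.

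Of the 10 gonadal somatic markers, Star and Cyp11a1 were singled out after their values were seen, and neither passed the threshold in either sex. Most of the list went the other way. Of the 10 markers, 6 had higher means in mutant than in control males (median 0.13) and 8 in mutant than in control females (median 0.17). Star, which carries cholesterol into mitochondria, was at -0.39 ± 0.146 in mutant males and 0.07 ± 0.214 in control males (difference -0.46, limma adjusted p = 0.303). It was at -1.14 ± 0.0522 in mutant females and -0.40 ± 0.229 in control females (-0.73, limma adjusted p = 0.0942), and the groups did not overlap in either sex. Cyp11a1, the enzyme that starts steroid synthesis, differed by -0.53 in males (limma adjusted p = 0.404), without overlap, and by -0.54 in females (limma adjusted p = 0.473), where the groups overlapped. Mutants lay below controls without overlap in 12% of all features in males and 7.35% in females.

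Ddx4, singled out from 5 tested germ cell markers, differed by 1.02 between mutant and control males (limma adjusted p = 0.313) and by 0.92 between mutant and control females (limma adjusted p = 0.450), without overlap in either sex. Of the 5 markers, 4 had higher means in mutant males (median 0.16) and 5 in mutant females (median 0.92), and 0 were called. In males, 8.43% of all features were higher in mutants without overlap. Among mesonephric markers, Cdh1 differed by 1.71 between mutant and control males (limma adjusted p = 0.0710), with 3 of 3 arrays well above background in mutant males and only 1 of 3 in control males, so the size is uncertain. Gata3 differed by 1.01 (limma adjusted p = 0.0971).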
